A study of Homo sapiens with 12 samples.

Results

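The genes described here are the 40 genes of the unfolded protein response and the integrated stress response, taken as every row of the deposited tables whose gene symbol is on a fixed list. They are 15 genes of the endoplasmic reticulum (ER branch), namely 11 chaperones and folding factors and 4 genes of ER-associated degradation, 4 stress sensors, and 21 genes of the ATF4 branch. The MEC1 table held all 40 among its 22441 genes, and the JVM2 table held 39 among its 17144. PSAT1, the missing one, was not analysed in JVM2. Every listed row passed the filter on low counts, so 40 genes were tested in MEC1 and 39 in JVM2.

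The ER folds secreted and membrane proteins. When unfolded proteins accumulate there, the membrane sensors IRE1 (encoded by ERN1), ATF6 and PERK (encoded by EIF2AK3) start the unfolded protein response, in which spliced XBP1 and cleaved ATF6 induce chaperones and degradation factors. PERK and the amino acid sensor GCN2 (encoded by EIF2AK4) phosphorylate the initiation factor eIF2α, which slows translation but favours that of ATF4, a transcription factor of genes for amino acid synthesis, amino acid transport, tRNA charging and feedback on the response. In the B lineage this response is best known for the expansion of the ER as B cells become antibody-secreting plasma cells.

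RNA was sequenced from MEC1 and JVM2, which are established human leukemia lines of B-cell origin, with 3 biological replicates of each of 4 populations. MEC1-2B17 and JVM2-2B17 cells carried the coding sequence of UGT2B17, a glucuronidating enzyme of the ER membrane, in the pcDNA6 vector and grew in blasticidin. The control of JVM2, JVM2-CTRL, held the vector without insert and was kept in the same antibiotic. The control of MEC1, MEC1-CTRL, held an shRNA against UGT2B17 and was kept in puromycin, so construct, antibiotic and UGT2B17 cannot be told apart between the MEC1 arms. Whether a population was grown from 1 clone or from a pool, and at which of the study's sequencing sites each library was read, is not given in the sources used here. Each arm was a single population, so p-values measure the spread between replicates of a population. Differences that arose in making and selecting a population cannot be told apart from UGT2B17 in either line. MEC1 libraries held 31762649 to 37744991 counts and JVM2 libraries 8809179 to 11231330, so the JVM2 values of low genes are the less precise. UGT2B17 itself was higher in the 2B17 arm of both lines, by 0.94 on the log2 scale in MEC1 and by 0.48 in JVM2. The B-cell markers MS4A1, CD79A, CD79B, PAX5 and CD22 passed the filter on low counts in both lines.

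The ER branch moved in opposite directions in the lines. Of its 15 genes, 13 rose and 0 fell in MEC1-2B17 cells by edgeR, whereas 1 rose and 11 fell in JVM2-2B17 cells. The count of ER genes lower in MEC1 was also 0 at an unadjusted p below 0.05 and by DESeq2. The median log2 fold change of the 15 genes was 0.31 in MEC1 and -0.45 in JVM2. A gene is called higher or lower where edgeR's quasi-likelihood test over all genes of the line gave a Benjamini-Hochberg adjusted p below 0.05. The background was wide. In MEC1, 41.7% of 16581 genes tested were called, 20% higher and 21.6% lower. In JVM2, 29.3% of 13021 genes were called, 14.1% higher and 15.3% lower, and the median over all genes tested lay near 0 in both lines (0.0026 and 1.192e-04). The counts of the 15 genes stand against those shares and are a description, since the list was chosen with earlier results of these data known.

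CPM are counts scaled to a library total of 1000000 after TMM adjustment of the totals. Summed over the 15 genes, the level rose from 3357 to 3609 CPM in the MEC1-CTRL libraries to 4536 to 4662 CPM in the MEC1-2B17 libraries. In JVM2 the sum went from 4014 to 4132 CPM in CTRL libraries to 2875 to 2985 CPM in 2B17 libraries. The arms did not overlap in either line, and the JVM2-2B17 libraries lay below the lowest MEC1-CTRL library. How each table was counted is given only in part, and the tables were filtered apart, so levels across lines are set side by side without a test. In bulk RNA a change in the share of cells of a type and a change in RNA per cell cannot be told apart.

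**Figure D1:**
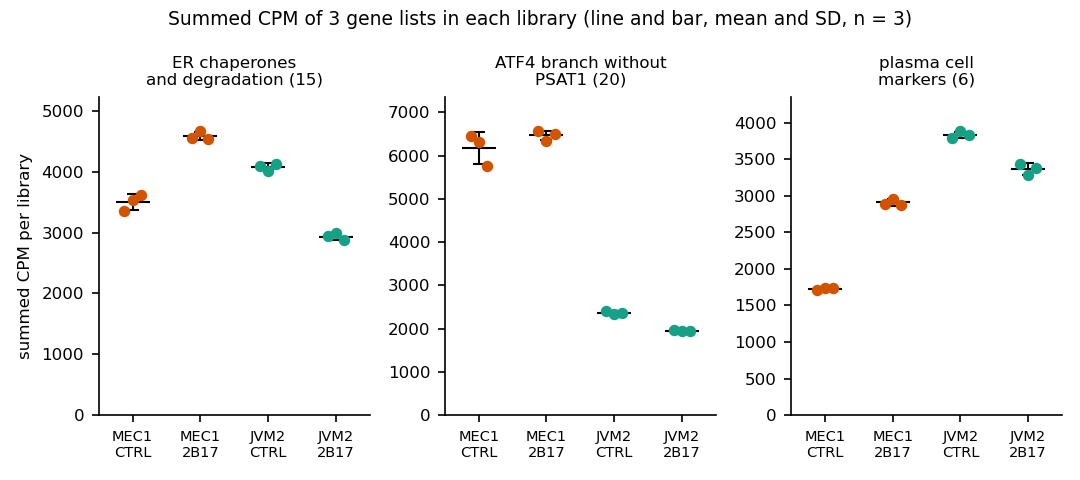
Summed CPM in each of the 12 libraries for the 15 ER genes, the 20 ATF4 genes in both tables and the 6 plasma cell markers, with points for replicates and a line with a bar for the mean and SD (n = 3). The ER sum is higher in MEC1-2B17 than in MEC1-CTRL and lower in JVM2-2B17 than in JVM2-CTRL, with no overlap of replicates.

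Among the 11 chaperones and folding factors, 10 rose in MEC1 and 10 fell in JVM2. None fell in MEC1 and none rose in JVM2 by edgeR, by DESeq2 or at an unadjusted p below 0.05. For 9 of the 11 both calls were made, higher in MEC1 and lower in JVM2. This combination was found for 3.5% of the 12243 genes tested in both lines. The 9 genes are HSPA5, HSP90B1, DNAJB11, SDF2L1, PDIA4, PDIA6, HYOU1, MANF and CRELD2.

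HSP90B1, which encodes the HSP90 of the ER lumen (GRP94), was among the genes with the largest rise. It was at 799, 849 and 868 CPM in MEC1-CTRL and at 1322, 1407 and 1301 CPM in MEC1-2B17 replicates, a log2 fold change of 0.68 ± 0.04 (SE), with an adjusted p of 2.010e-11 by edgeR. In JVM2 it was at 1272, 1226 and 1265 CPM in CTRL and at 859, 896 and 813 CPM in 2B17 replicates, a log2 fold change of -0.55 ± 0.05 (adjusted p 8.367e-06 by edgeR). The populations with the higher level, MEC1-2B17 and JVM2-CTRL, were thus close to each other in CPM, and the other two were close as well.

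HYOU1 encodes a large HSP70-like chaperone that also serves as nucleotide exchange factor for BiP. Its replicates were at 310.4, 324 and 342 CPM in MEC1-CTRL and 478, 493 and 496 CPM in MEC1-2B17, and at 427, 423 and 413 CPM in JVM2-CTRL and 284, 246 and 270.2 CPM in JVM2-2B17. The log2 fold changes were 0.59 ± 0.04 and -0.66 ± 0.06. PDIA4 encodes a protein disulfide isomerase, an enzyme that makes and reshuffles disulfide bonds. It went from 284, 301 and 325 CPM to 431, 436 and 429 CPM in MEC1, and from 393, 391 and 379.5 CPM to 263, 259 and 261 CPM in JVM2. These are log2 fold changes of 0.51 ± 0.04 and -0.57 ± 0.05, and the arms were apart in both lines.

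MANF, a small secreted ER protein that binds BiP, had the largest fall of the chaperones in JVM2. There it dropped from 103, 97.4 and 96.2 CPM to 54.1, 52 and 55.6 CPM, a log2 fold change of -0.87 ± 0.06 (adjusted p 4.975e-07 by edgeR). In MEC1 it rose from 52.5, 58.4 and 63.3 CPM to 82.5, 84.4 and 82.4 CPM (0.52 ± 0.05). SDF2L1, a partner of the ER DnaJ proteins, had the largest log2 rise of the chaperones in MEC1, 0.71 ± 0.09, from 19.4, 23.8 and 27.7 CPM to 38.1, 34.5 and 42.6 CPM. In JVM2 it fell by 0.51 ± 0.11 on the same scale.

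HSPA5, which encodes BiP, the main HSP70 of the ER and the inhibitor of the ER membrane sensors, fell clearly in JVM2 and rose little in MEC1. In JVM2 it fell from 471, 398 and 494 CPM to 276, 283 and 282 CPM, a log2 fold change of -0.70 ± 0.07 (adjusted p 1.877e-05 by edgeR). In MEC1 the CTRL replicates were at 337, 356 and 395 CPM and the 2B17 replicates at 406, 395 and 407 CPM, so the arms touched at the highest CTRL and the lowest 2B17 replicate. The log2 fold change of 0.15 ± 0.05 had an adjusted p of 0.0118 by edgeR. It was 0.10 (adjusted p 0.0786) without MEC1-CTRL replicate 1 and 0.14 (adjusted p 0.0544) without MEC1-CTRL replicate 2, and the call was then lost. HSPA5 lies on the long arm of chromosome 9 (chr9:125234853-125241382, GRCh38, minus strand), where the 185 genes tested within 10 Mb had a median log2 fold change of -0.38 in MEC1, and 73.5% of them were called lower. In JVM2 the 146 neighbours had a median of 0.00035. The part of the neighbourhood in the value of HSPA5 was not tested.

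In MEC1 the J-domain proteins DNAJB11 and DNAJB9, which hand substrates to BiP, rose by 0.40 ± 0.04 and 0.36 ± 0.06 on the log2 scale, and the disulfide isomerase PDIA6 rose by 0.24 ± 0.04. CRELD2, a secreted ER stress protein, rose by 0.26 ± 0.07. In JVM2, DNAJB11, PDIA6 and CRELD2 fell by 0.48, 0.38 and 0.45. DNAJC3 (p58IPK) and DNAJB9 each changed in 1 line. The log2 fold change of DNAJC3 in MEC1 was 0.01 ± 0.04 (adjusted p 0.819 by edgeR), and its fall in JVM2 was -0.29 ± 0.07 (adjusted p 0.00798). DNAJB9 was at 22.8 to 29.3 CPM in all 6 JVM2 libraries, with a log2 fold change of 0.03 ± 0.11.

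In the heat map of CPM by library, the MEC1-2B17 and JVM2-2B17 columns of the ER block take opposite colours. MEC1-CTRL replicate 1 was the lowest of its population for the ER branch, at 0.078 below the population mean on average over the 15 genes (log2 scale), and leaving it out left 12 genes higher.

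**Figure D2:**
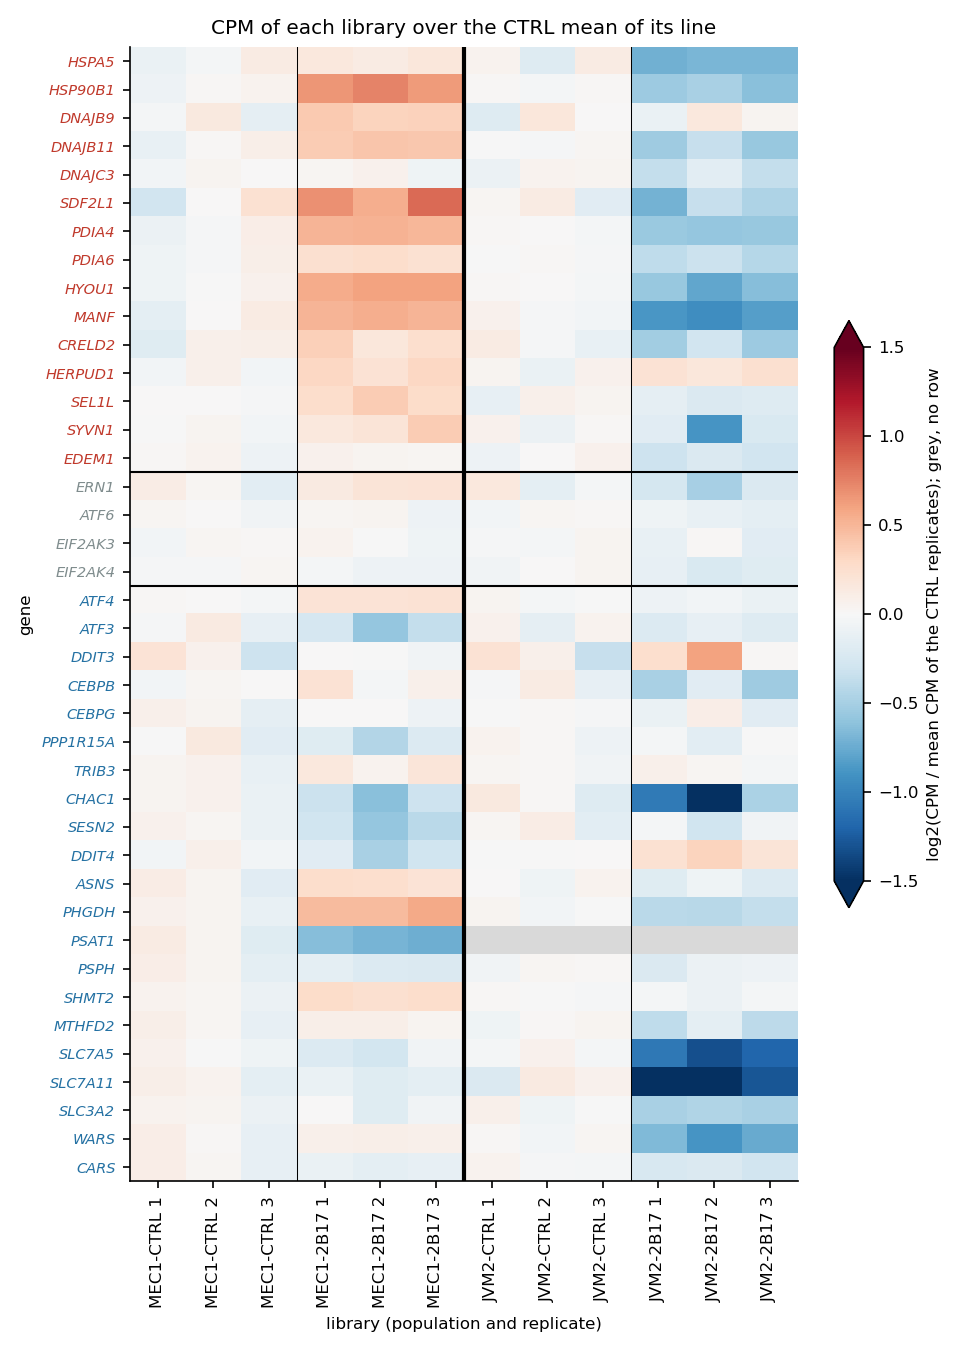
Log2 ratio of each library's CPM to the mean CPM of the CTRL replicates of the same line, for the 40 genes (rows, ER genes in red, sensors in grey, ATF4 branch in blue) and 12 libraries (columns). Colours end at 1.5 on either side; the ER block is red in MEC1-2B17 and blue in JVM2-2B17 apart from HERPUD1 and DNAJB9 in JVM2 and replicate 3 of DNAJC3 in MEC1, the deepest blue is in SLC7A11, SLC7A5 and CHAC1 in JVM2-2B17, and PSAT1 has no JVM2 value.

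Promoters of the chaperones are shown because these genes moved together. The ER stress element, bound by ATF6 and XBP1 with the factor NF-Y, consists of CCAAT and CCACG separated by 9 bases. It was searched on both strands in windows from 250 bases before to 50 bases after the start of the gene, from RefSeq on GRCh38.p14. The window was found for 37 of the 40 genes; SHMT2, PSPH and SLC7A11 had none. The element was found in 3 of the 15 ER promoters (20%), HSPA5, HSP90B1 and CRELD2, against 22 of 27305 promoters in the table (0.0806%), and in 0 of 18 promoters of the ATF4 branch. The core of the unfolded protein response element, TGACGTGG, which did not overlap it, was found in 1 of 15, HYOU1, against 0.795% of all promoters. The 250 bases before the start are printed 5′ to 3′ on the strand of the gene, with matches in capitals. In HSP90B1 the first match starts 194 bases before the gene and the second, on the opposite strand, 89 bases before it. The match starts 66 bases before HSPA5 and, on the opposite strand, 80 bases before CRELD2. The windows lie at chr9:125241344-125241593 (minus strand), chr12:103930160-103930409 (plus strand) and chr22:49918384-49918633 (plus strand).
HSPA5: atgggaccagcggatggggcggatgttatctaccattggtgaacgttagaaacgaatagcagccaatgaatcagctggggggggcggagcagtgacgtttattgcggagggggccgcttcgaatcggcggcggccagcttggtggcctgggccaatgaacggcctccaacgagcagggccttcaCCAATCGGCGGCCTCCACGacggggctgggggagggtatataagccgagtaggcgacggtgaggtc
HSP90B1: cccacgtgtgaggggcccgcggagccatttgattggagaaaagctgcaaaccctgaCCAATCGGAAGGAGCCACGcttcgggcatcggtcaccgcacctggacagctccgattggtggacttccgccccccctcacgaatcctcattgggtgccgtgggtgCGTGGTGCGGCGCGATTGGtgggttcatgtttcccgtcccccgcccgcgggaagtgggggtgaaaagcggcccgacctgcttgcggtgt
CRELD2: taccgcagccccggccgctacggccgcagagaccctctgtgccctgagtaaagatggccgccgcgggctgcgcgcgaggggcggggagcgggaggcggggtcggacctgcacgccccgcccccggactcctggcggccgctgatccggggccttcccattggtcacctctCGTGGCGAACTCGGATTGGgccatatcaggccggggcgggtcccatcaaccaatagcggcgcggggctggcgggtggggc
All 3 genes were among the 9 that rose in MEC1 and fell in JVM2, and the other 6 of the 9 had no match to this element in their windows. A match is a description of the letters and does not show that a factor binds there.

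The 4 genes of ER-associated degradation were less uniform. Rises in both lines were called for 477 of the 12243 genes tested in both. HERPUD1, a membrane protein that gathers the degradation complex, was the only ER gene that rose in both lines. Its replicates were at 119.9, 130.3 and 120.1 CPM in MEC1-CTRL and 153, 144 and 153 CPM in MEC1-2B17 (log2 fold change 0.28 ± 0.04), and at 129, 117 and 131 CPM in JVM2-CTRL and 146, 142 and 148 CPM in JVM2-2B17 (0.21 ± 0.06, adjusted p 0.0233 by edgeR). The arms did not overlap in either line, but the JVM2 call was lost without JVM2-CTRL replicate 2 (0.16, adjusted p 0.135), without JVM2-2B17 replicate 1 (0.21, adjusted p 0.0687) and without JVM2-2B17 replicate 3 (0.20, adjusted p 0.0604). The promoter of HERPUD1 was the single ER promoter with a match to the C/EBP-ATF response element core bound by ATF4 (TGATGNAA), and it is printed with the ATF4 branch.

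SEL1L and SYVN1 encode the scaffold and the ubiquitin ligase (HRD1) of the main degradation channel. In MEC1 they rose by 0.31 ± 0.04 and 0.25 ± 0.05 on the log2 scale. In JVM2 their log2 fold changes were -0.18 ± 0.06 (adjusted p 0.0556) and -0.39 ± 0.14 (adjusted p 0.0541), just outside the threshold, while DESeq2 called SYVN1 (adjusted p 0.0375). SYVN1 was at 52.5, 47.4 and 50.8 CPM in JVM2-CTRL and at 44.6, 27.2 and 42.8 CPM in JVM2-2B17, with replicate 2 far below its population. Without that replicate the log2 fold change was -0.20, nearer to 0, yet it passed (adjusted p 0.0294), as did that of SEL1L (-0.16, adjusted p 0.0386). SYVN1 also passed without JVM2-2B17 replicate 1 (adjusted p 0.0261 by edgeR) or 3 (0.0481), and SEL1L without JVM2-CTRL replicate 1 (0.0240). With library size only, SYVN1 and SEL1L both passed (adjusted p 0.0469 and 0.0497 by edgeR). EDEM1, which draws misfolded glycoproteins out of the folding cycle, was at 442 to 486 CPM in all 6 MEC1 libraries (0.05 ± 0.04) and fell in JVM2 (-0.27 ± 0.06, adjusted p 0.00399 by edgeR).

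Of the 4 stress sensors, 1 rose in MEC1 (25%, against 20% of all genes) and 2 fell in JVM2 (50%, against 15.3%). The MEC1 share was close to that of all genes. ERN1 (IRE1) rose from 115, 108 and 94.9 CPM to 117, 121 and 122 CPM in MEC1 (0.18 ± 0.05, adjusted p 0.00692 by edgeR) and fell from 33.5, 27.2 and 29.4 CPM to 25, 21.3 and 25.8 CPM in JVM2 (-0.32 ± 0.10, adjusted p 0.0366). The JVM2 call of ERN1 was lost with DESeq2 (adjusted p 0.0815) and without JVM2-CTRL replicate 1 or 3 or JVM2-2B17 replicate 1 or 2 (log2 fold change -0.35 to -0.23, adjusted p 0.0503 to 0.159). EIF2AK4 (GCN2) was lower in JVM2 by 0.18 on the log2 scale (adjusted p 0.0434), a call lost with DESeq2 (adjusted p 0.142) and without any single JVM2 library but 2B17 replicate 2 (adjusted p 0.0590 to 0.173). ATF6 and EIF2AK3 (PERK) passed in neither line, with log2 fold changes between -0.11 and 0.00. RNA levels of the sensors say nothing of the activity of the proteins.

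XBP1, the transcription factor downstream of IRE1, is not among the 40 genes and was named because it induces many of them. It was at 368, 381 and 361 CPM in MEC1-CTRL and 388, 358 and 369.7 CPM in MEC1-2B17 (0.01 ± 0.04, adjusted p 0.895 by edgeR). It fell in JVM2 from 367, 371 and 361 CPM to 285, 292 and 258 CPM (-0.39 ± 0.06, adjusted p 3.017e-04). The CTRL populations of the lines had nearly the same level, and the arms overlapped in MEC1 and were apart in JVM2. Counts per gene do not separate spliced from unspliced XBP1.

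**Figure D3:**
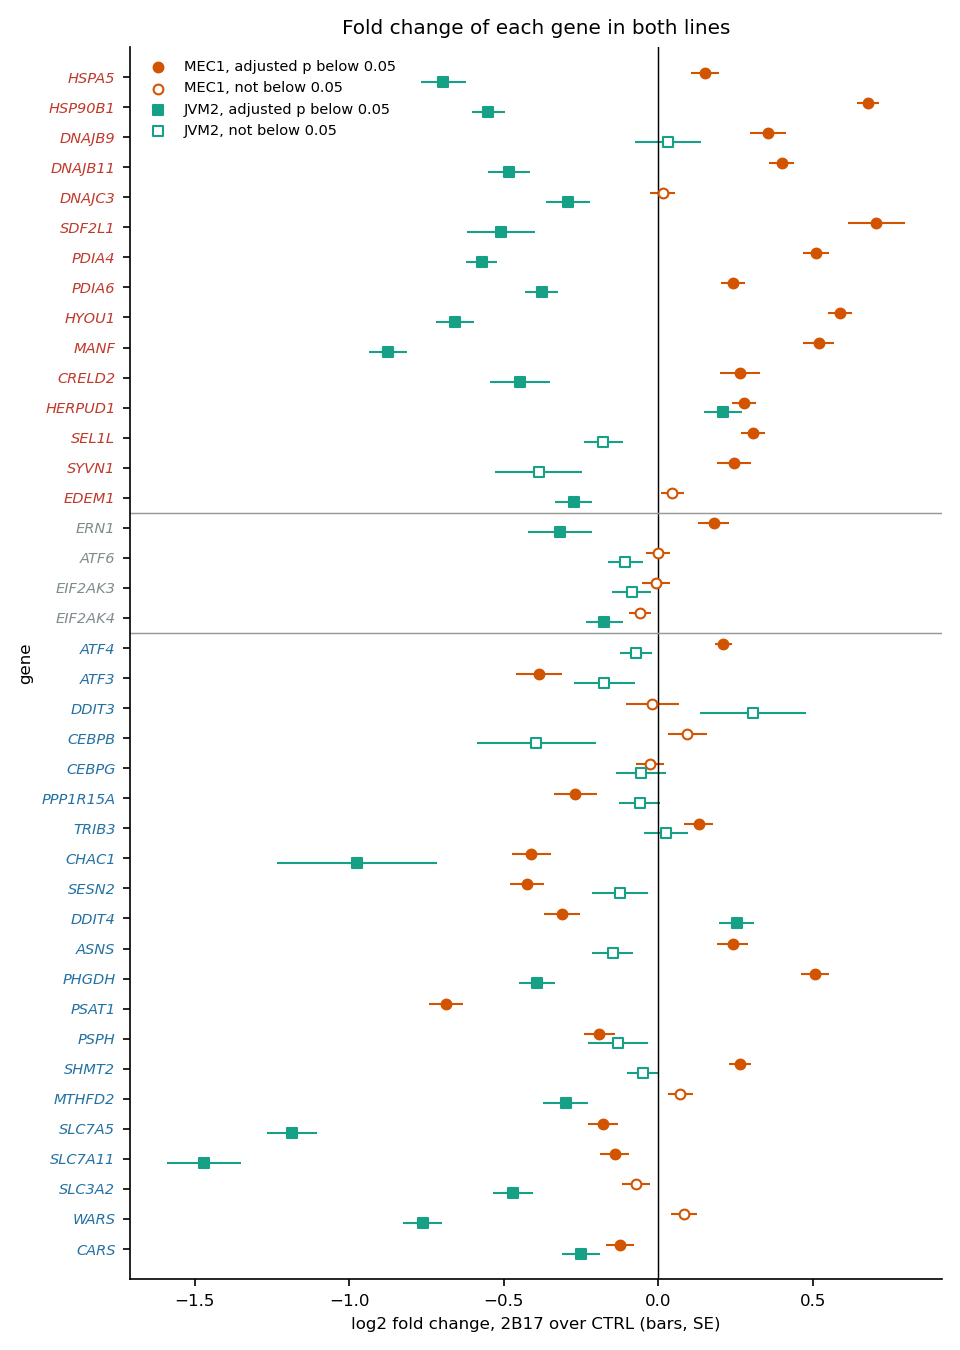
Log2 fold change of 2B17 over CTRL (horizontal axis) for each of the 40 genes in MEC1 (circles) and JVM2 (squares), with bars for the SE, filled where the adjusted p was below 0.05. Most ER genes lie on opposite sides of 0 in the lines, while SLC7A11 (-1.47) and SLC7A5 (-1.19) in JVM2 are the farthest from 0.

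The ATF4 branch did not move as a unit. In MEC1, 5 of its 21 genes rose, 10 fell and 6 were not called, with a median log2 fold change of -0.07. In JVM2, 1 of 20 rose, 8 fell and 11 were not called, with a median of -0.16. The share of genes lower (47.6% and 40%) stands against 21.6% and 15.3% over all genes. The share higher (23.8% and 5%) stands against 20% and 14.1%, so in MEC1 it was close to that of all genes. The summed CPM of the 20 genes in both tables overlapped between the MEC1 arms (5767 to 6467 CPM in CTRL and 6343 to 6561 CPM in 2B17) and was apart in JVM2, at 2346 to 2395 CPM in CTRL and 1939 to 1975 CPM in 2B17. MEC1-CTRL replicate 3 was the lowest of the MEC1-CTRL libraries in this sum, and the number of ATF4 genes lower in MEC1 was 12 without it, against 8 without MEC1-CTRL replicate 1.

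Of the 5 transcription factors, ATF4 itself rose in MEC1 from 847, 843 and 824 CPM to 967, 966 and 976 CPM, with no overlap (0.21 ± 0.03, adjusted p 6.477e-06 by edgeR). In JVM2 it was at 277, 263 and 268 CPM in CTRL and 255, 262 and 252 CPM in 2B17 (-0.07 ± 0.05, adjusted p 0.336). ATF3, a stress-induced repressor and partner of ATF4, fell in MEC1 (-0.39 ± 0.07) and did not pass in JVM2 (-0.18 ± 0.10, adjusted p 0.205). DDIT3 (CHOP), which is tied to the death of stressed cells, passed in neither line, though without MEC1-CTRL replicate 3 it was called lower in MEC1 (-0.15, adjusted p 0.0368 by edgeR). It was at 24.7 to 35.1 CPM in MEC1 libraries and 7.11 to 13.7 CPM in JVM2 libraries. It shares 355 exon bases with MARS1 on the opposite strand, and the strand setting of the counting is not given in the sources used here. The C/EBP factors CEBPB and CEBPG passed in neither line.

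Of the 5 genes that feed back on the response or report it, 4 fell and 1 rose in MEC1. These were 80% and 20%, beside 21.6% and 20% of all genes. SESN2, an inhibitor of mTORC1, went from 160.1, 156 and 142 CPM to 124, 102 and 115 CPM (-0.42 ± 0.05). CHAC1, a glutathione-degrading enzyme and sharp ATF4 target, went from 93.3, 95 and 84.8 CPM to 72.9, 59 and 73.5 CPM (-0.41 ± 0.06). In both genes the arms were apart and MEC1-2B17 replicate 2 was the lowest of all 6 libraries. PPP1R15A (GADD34), the phosphatase subunit that restores translation, also fell (-0.27 ± 0.07, adjusted p 0.00434 by edgeR), but with an adjusted p of 0.0857 by DESeq2. TRIB3, a pseudokinase that restrains ATF4, rose slightly (0.13 ± 0.05, adjusted p 0.0285), and this call was lost without MEC1-CTRL replicate 3 (0.08) and without MEC1-2B17 replicate 1 (0.12) or 3 (0.11), at an adjusted p of 0.0861 to 0.122. It was also lost where both edgeR's exact test and DESeq2 had to pass (adjusted p 0.0534).

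Calls of lower in MEC1 and higher in JVM2 were made together for 481 of the 12243 genes tested in both lines. Of the list, DDIT4 (REDD1), another inhibitor of mTORC1, was the single gene with this combination. It went from 226, 247 and 228 CPM to 208, 167 and 191 CPM in MEC1 (-0.31 ± 0.06, adjusted p 2.229e-04 by edgeR) and from 192, 191 and 192 CPM to 225, 241 and 219.6 CPM in JVM2 (0.25 ± 0.06, adjusted p 0.00503). The arms were apart in both lines. CHAC1 was low in JVM2, at 4.18, 3.82 and 3.29 CPM in CTRL and 1.81, 1.24 and 2.72 CPM in 2B17. It was called lower there (-0.98 ± 0.26), a call lost without JVM2-CTRL replicate 1 (-0.89, adjusted p 0.0582). PPP1R15A, SESN2 and TRIB3 were not called in JVM2, with log2 fold changes between -0.12 and 0.03.

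The 6 genes of serine, one-carbon and asparagine synthesis split within one pathway. A rise in MEC1 with a fall in JVM2 was found for 3.5% of all genes tested in both lines. PHGDH, the first enzyme of serine synthesis, was the only ATF4 gene that rose in MEC1 and fell in JVM2. It went from 158, 155 and 139 CPM to 209, 209 and 224 CPM in MEC1 (0.51 ± 0.05, adjusted p 3.369e-08 by edgeR) and from 135, 127 and 129 CPM to 98.7, 97.5 and 102 CPM in JVM2 (-0.39 ± 0.06, adjusted p 2.440e-04). SHMT2, which turns serine into glycine and one-carbon units in mitochondria, and ASNS, asparagine synthetase, rose in MEC1 (0.26 ± 0.04 and 0.24 ± 0.05) and were not called in JVM2 (-0.05 ± 0.05 and -0.15 ± 0.07), although ASNS was without JVM2-2B17 replicate 2 (-0.19, adjusted p 0.0157 by edgeR). The other steps of serine synthesis went the other way in MEC1: PSPH, the last, fell by 0.19 ± 0.05, and PSAT1, the middle one, fell from 552, 521 and 448 CPM to 326, 314 and 306 CPM (-0.69 ± 0.05, adjusted p 5.756e-09).

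PSAT1 lies on the long arm of chromosome 9 (chr9:78297125-78330093, GRCh38, plus strand). The 52 genes tested within 10 Mb of it had a median log2 fold change of -0.64 in MEC1, close to its own value, and 75.0% of them were called lower. PSAT1 and HSPA5 were thus the members whose neighbours departed most from 0. For the other 38 the median of the neighbours lay between -0.18 and 0.13 in MEC1, and the part of the chromosome in the values of PSAT1 and HSPA5 was not tested. Without PSAT1, 9 of the 20 remaining ATF4 genes were lower in MEC1. MTHFD2, the mitochondrial folate enzyme, was not called in MEC1 (0.07 ± 0.04) and fell in JVM2 (-0.30 ± 0.07, adjusted p 0.00841), a call lost without JVM2-CTRL replicate 3 (-0.28, adjusted p 0.0509).

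**Figure D4:**
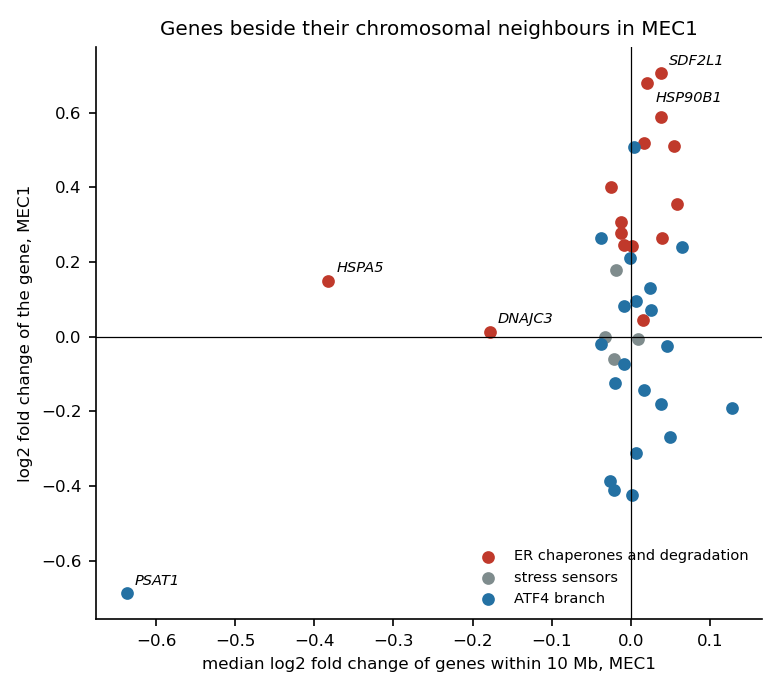
Log2 fold change of each of the 40 genes in MEC1 (vertical axis) against the median log2 fold change of the tested genes within 10 Mb on the same chromosome (horizontal axis), coloured by branch. PSAT1 (-0.69 beside -0.64) and HSPA5 (0.15 beside -0.38) stand left of the rest.

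The amino acid transporter genes held the largest log2 fold changes of the 40 genes, those of SLC7A11 and SLC7A5 in JVM2. SLC7A11, the cystine importer xCT, fell from 27.6, 35 and 33.3 CPM to 10.8, 10.8 and 13.1 CPM, a log2 fold change of -1.47 ± 0.12 (adjusted p 1.891e-06 by edgeR). SLC7A5 (LAT1), which imports large neutral amino acids, fell from 58.9, 62.8 and 58.8 CPM to 28.6, 24.1 and 26.5 CPM, a change of -1.19 ± 0.08 (adjusted p 3.572e-07). SLC3A2, the heavy chain that both transporters need at the membrane, fell from 75.1, 68.3 and 71 CPM to 51.1, 52.4 and 51.1 CPM, a change of -0.47 ± 0.06. All 3 had arms far apart. In MEC1 the changes were small: SLC7A5 was lower by 0.18 ± 0.05 and SLC7A11 by 0.14 ± 0.05, with overlapping arms in both, and SLC3A2 was not called (-0.07 ± 0.05). The MEC1 call of SLC7A11 was lost without MEC1-CTRL replicate 1 or 2 or MEC1-2B17 replicate 2 or 3 (log2 fold change -0.13 to -0.10, adjusted p 0.0905 to 0.128). The pseudogene SLC7A5P1 held 2.94% as many counts as SLC7A5 in JVM2 and 0.653% in MEC1.

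The tRNA ligase genes WARS (for tryptophan) and CARS (for cysteine) fell in JVM2. WARS went from 635, 606 and 636 CPM to 396, 339.6 and 370.4 CPM (-0.76 ± 0.06, adjusted p 2.097e-06 by edgeR), and CARS changed by -0.25 ± 0.06. In MEC1, WARS was not called (0.08 ± 0.04). CARS was called lower in MEC1 (-0.12 ± 0.05, adjusted p 0.0373), but not without any one of 5 of the 6 libraries, all but MEC1-CTRL replicate 3 (log2 fold change -0.13 to -0.07, adjusted p 0.0629 to 0.199), nor where both edgeR's exact test and DESeq2 had to pass (adjusted p 0.0722). WARS is also known as an interferon-induced gene.

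The response element core TGATGNAA was found on either strand in 5 of the 18 ATF4-branch promoters (27.8%), ATF3, CHAC1, ASNS, SLC3A2 and CARS, against 3.67% of all 27305 promoters. Among the ER genes it was found in HERPUD1 alone (6.67% of 15). Of the ATF4-branch genes with a match, ATF3 was called lower in MEC1 alone, SLC3A2 in JVM2 alone and CARS in both lines. Windows of ASNS, whose element is a well-known ATF4 site, of CHAC1 and of HERPUD1 are printed, since their genes moved unlike each other: ASNS rose in MEC1 and was not called in JVM2, CHAC1 fell in both lines and HERPUD1 rose in both. They lie at chr7:97872409-97872658 (minus strand), chr15:40953221-40953470 (plus strand) and chr16:56931892-56932141 (plus strand), and capitals mark the core, which starts 68, 209 and 176 bases before the gene and is on the opposite strand in CHAC1 and HERPUD1.
ASNS: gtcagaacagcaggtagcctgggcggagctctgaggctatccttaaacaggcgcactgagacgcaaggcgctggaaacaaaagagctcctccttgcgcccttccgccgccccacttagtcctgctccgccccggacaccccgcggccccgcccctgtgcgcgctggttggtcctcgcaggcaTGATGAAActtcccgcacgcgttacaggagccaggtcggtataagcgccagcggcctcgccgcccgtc
CHAC1: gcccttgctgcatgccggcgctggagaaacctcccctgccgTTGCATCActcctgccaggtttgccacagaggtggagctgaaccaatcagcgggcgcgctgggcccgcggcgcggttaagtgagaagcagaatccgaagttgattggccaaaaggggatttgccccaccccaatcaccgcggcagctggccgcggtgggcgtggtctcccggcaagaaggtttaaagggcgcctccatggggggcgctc
HERPUD1: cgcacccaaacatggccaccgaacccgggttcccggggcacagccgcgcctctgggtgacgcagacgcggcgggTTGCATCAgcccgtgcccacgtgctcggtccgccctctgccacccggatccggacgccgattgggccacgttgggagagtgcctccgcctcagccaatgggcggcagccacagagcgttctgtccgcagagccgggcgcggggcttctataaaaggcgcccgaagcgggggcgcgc

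One edgeR quasi-likelihood fit of all 12 libraries, with an interaction term, asked whether the 2B17 arm had unlike effects in the lines. The difference, MEC1 minus JVM2, passed for 32% of 15130 genes, with 15.3% positive and 16.7% negative. Of the 15 ER genes 13 differed, all with the higher value in MEC1, and 0 differed the other way by edgeR, by DESeq2 or at an unadjusted p below 0.05. The largest differences were 1.40 ± 0.08 for MANF, 1.25 ± 0.07 for HYOU1, 1.23 ± 0.07 for HSP90B1, 1.22 ± 0.17 for SDF2L1 and 1.09 ± 0.07 for PDIA4 on the log2 scale, with adjusted p between 1.651e-11 and 1.023e-05. HERPUD1 differed by 0.07 ± 0.08 (adjusted p 0.507) and DNAJB9 by 0.33 ± 0.13 (adjusted p 0.0513), the ER genes that did not pass.

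Of the 20 ATF4-branch genes 9 had a positive and 1 a negative difference. The positive ones held SLC7A11 (1.34 ± 0.13) and SLC7A5 (1.01 ± 0.10), which fell in both lines and fell more in JVM2, as well as PHGDH (0.91 ± 0.08) and WARS (0.85 ± 0.08). DDIT4 was the negative one (-0.56 ± 0.09, adjusted p 7.896e-05). Among the sensors ERN1 differed (0.50 ± 0.12, adjusted p 0.00274). Of the 39 genes tested, 11 were called higher in MEC1 and lower in JVM2, namely the 9 chaperones, ERN1 and PHGDH. As the MEC1 arms differed in construct and antibiotic, the difference between the lines cannot be told apart from a difference between their controls.

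**Figure D5:**
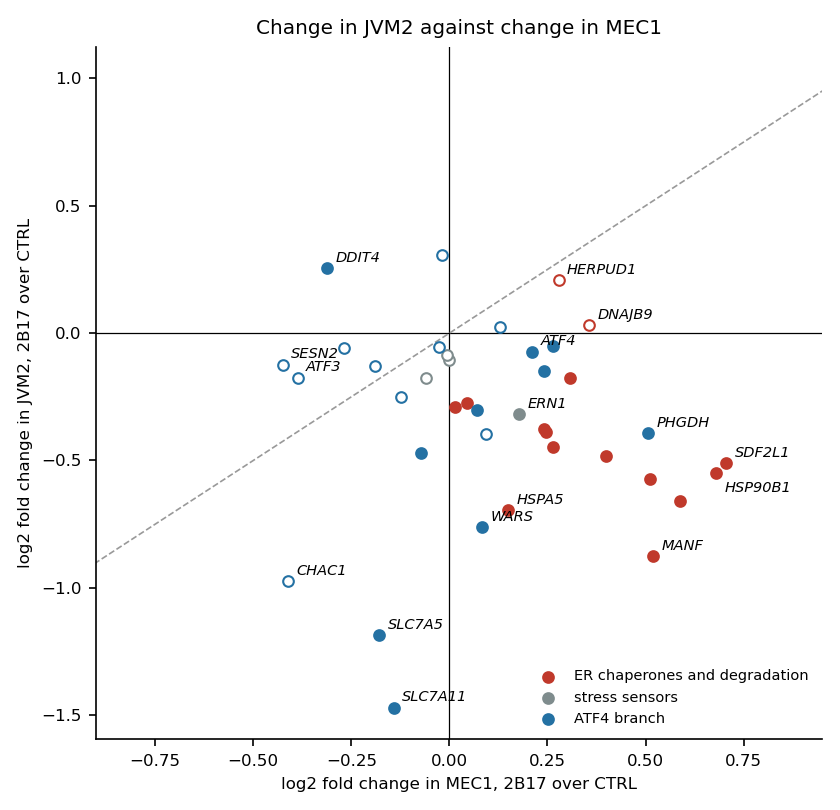
Log2 fold change in JVM2 (vertical axis) against that in MEC1 (horizontal axis) for the 39 genes tested in both lines, coloured by branch, filled where the interaction passed, with a dashed line of equal change. The ER genes other than HERPUD1 and DNAJB9 lie right of 0 in MEC1 and below 0 in JVM2, and SLC7A11, SLC7A5 and CHAC1 lie lowest.

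Over all genes, the replicates of the arms did not overlap in CPM for 50.1% of genes in MEC1 and 45.2% in JVM2. Of the ER genes 12 of 15 did not overlap in MEC1 and 14 of 15 in JVM2. Of the ATF4 branch 10 of 21 and 14 of 20 did not, so that in MEC1 this branch was close to the background.

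Other genes of both pathways, on lists written for this comparison, are given by their counts. Of 33 further ER genes (translocon, disulfide formation, lectins, retrotranslocation), 24 rose and 4 fell in MEC1, and 0 rose and 15 fell in JVM2, with median log2 fold changes of 0.23 and -0.19. In MEC1 these were 72.7% and 12.1%, beside 20% and 21.6% of all genes. In JVM2 they were 0% and 45.5%, beside 14.1% and 15.3%. In JVM2, edgeR gave 1 of the 33 genes as higher at an unadjusted p below 0.05, and DESeq2 gave 0. SEC61A1, the pore of the translocon, rose by 0.58 ± 0.03 in MEC1 and fell by 0.46 ± 0.06 in JVM2. The largest rises in MEC1 were those of WFS1 (0.69 ± 0.07), SEC61A1 and DERL3 (0.55 ± 0.06), a derlin of the retrotranslocation channel, and the falls included those of ERP44 (-0.66 ± 0.03) and TXNDC5 (-0.25 ± 0.06). ERP44 also lies on chromosome 9, where its 98 neighbours had a median of -0.34. In JVM2 the largest falls were those of TXNDC5 (-1.01 ± 0.08), a disulfide isomerase, FKBP11 (-0.76 ± 0.10), a prolyl isomerase of secretory cells, and ERO1B (-0.58 ± 0.10), a disulfide oxidase.

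Of the further ATF4-related genes, 12 rose and 10 fell of 34 tested in MEC1, and 1 rose and 11 fell of 32 in JVM2. In MEC1 these were 35.3% and 29.4%, beside 20% and 21.6% of all genes. In JVM2 they were 3.13% and 34.4%, beside 14.1% and 15.3%. The largest rises in MEC1 were those of CBS (0.45 ± 0.06), BCAT1 (0.45 ± 0.04) and ATF5 (0.39 ± 0.05), and the largest falls those of VLDLR (-1.24 ± 0.10), JDP2 (-0.70 ± 0.07) and EIF2AK2 (-0.51 ± 0.04), the interferon-induced eIF2α kinase PKR. In JVM2, BCAT1, which transaminates branched-chain amino acids, was the gene that rose (1.41 ± 0.10). The largest falls there were those of the one-carbon enzyme ALDH1L2 (-0.86 ± 0.12) and of the amino acid transporters SLC7A1 (-0.71 ± 0.09) and SLC1A5 (-0.55 ± 0.06), alongside those of SLC7A11, SLC7A5 and SLC3A2.

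Markers of plasma cells and of B cells changed as well, beside 20% of all genes called higher and 21.6% lower in MEC1. In JVM2 those shares were 14.1% and 15.3%. The summed CPM of PRDM1, IRF4, SDC1, JCHAIN, MZB1 and TNFRSF17 was 1713 to 1739 in MEC1-CTRL and 2880 to 2964 in MEC1-2B17, and 3796 to 3884 in JVM2-CTRL and 3281 to 3439 in JVM2-2B17. The rise of the sum in MEC1 was carried by IRF4. Without it the other 5 markers summed to 541 to 572 CPM in MEC1-CTRL and 511 to 513 CPM in MEC1-2B17, and to 1865 to 1937 CPM in JVM2-CTRL and 1303 to 1368 CPM in JVM2-2B17. In MEC1, 3 of the 6 rose (IRF4, SDC1 and MZB1) and 3 fell (PRDM1, JCHAIN and TNFRSF17). In JVM2, 4 fell (PRDM1, SDC1, JCHAIN and MZB1) and 0 rose by edgeR, by DESeq2 or at an unadjusted p below 0.05. Of the 5 B-cell markers named above, 2 rose (CD79A and CD22) and 3 fell in MEC1, with MS4A1 at -0.58 ± 0.03. In JVM2, 2 rose (MS4A1, 0.40 ± 0.06, and CD22) and 1 fell (CD79A). They summed to 2034 to 2094 CPM in MEC1-CTRL and 1840 to 1908 CPM in MEC1-2B17, and to 1199 to 1226 CPM in JVM2-CTRL and 1142 to 1371 CPM in JVM2-2B17, where the arms overlapped. The part of either marker list in the ER result was not tested. Markers of T cells (CD3D, CD3E and CD2) summed to at most 0.378 CPM in any MEC1 library and had no row in JVM2, and the myeloid markers CD14, LYZ and CSF1R summed to at most 1.7 CPM in any library.

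Some members share exon bases with a gene on the opposite strand, and without a known strand setting reads there cannot be assigned. Besides DDIT3, these include CEBPB, which shares 231 exon bases with CEBPB-AS1, SYVN1 with MRPL49 (356 bases), DNAJB11 with TBCCD1 (381 bases) and CRELD2 with ALG12 (168 bases), at 12.6%, 6.48%, 4.06% and 3.25% of their exon bases.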

How the data were processed

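The 12 libraries (3 replicates in each of 4 populations) were made from total RNA after removal of rRNA and read from both ends. The authors trimmed the reads and aligned them to hg38, and deposited raw read counts per gene for each line. The submitters' processing notes name Trimmomatic, TopHat2 2.0.14 and HTSeq. The annotation release is not given in the sources used here. The deposited tables also hold 12 columns of normalized values and the authors' own fold changes and p-values, which were not used.

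Each line was fitted over its whole table with edgeR 4.0.16 (TMM, filterByExpr with a minimum count of 10, quasi-likelihood F-test) in R 4.3.3, and p-values were adjusted by Benjamini-Hochberg over all genes tested. SE values were derived from the F statistic, and n = 3 throughout. For CPM, the column total over the genes tested was multiplied by its TMM factor and scaled to 1000000. The common biological variation was 4.22% in MEC1 and 6.92% in JVM2. The interaction fit joined the tables by Ensembl identifier. DESeq2 1.42.0 and the other alternatives are given in the closing section. Positions came from GENCODE 44. The fits were checked on data with known answers.

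The 40 genes and the other lists were chosen with earlier results of these data known. Beyond the 40 genes, the text names UGT2B17, XBP1, the marker genes and, per list and line, at most 3 called genes with the largest rise and 3 with the largest fall. SEC61A1 in JVM2 and the pseudogene SLC7A5P1 were named after their values were seen. Some genes that this rule or the marker lists hold are not reported here.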

Additional observations from a re-analysis of the deposited data

Results flagged for a closer look

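The effect of the 2B17 arm differed between MEC1 and JVM2 for 24 of the 39 genes tested, by the interaction term of edgeR's quasi-likelihood fit (adjusted over all genes). The difference is the log2 fold change in MEC1 minus that in JVM2. Among the chaperones it was 0.85 for HSPA5, 1.23 for HSP90B1, 0.89 for DNAJB11, 0.31 for DNAJC3, 1.22 for SDF2L1, 1.09 for PDIA4, 0.62 for PDIA6, 1.25 for HYOU1, 1.40 for MANF and 0.72 for CRELD2. Among the genes of ER-associated degradation it was 0.49 for SEL1L, 0.64 for SYVN1 and 0.32 for EDEM1, and for the sensor ERN1 it was 0.50. In the ATF4 branch it was 0.29 for ATF4, 0.39 for ASNS, 0.91 for PHGDH, 0.32 for SHMT2, 0.38 for MTHFD2, 1.01 for SLC7A5, 1.34 for SLC7A11, 0.40 for SLC3A2 and 0.85 for WARS. DDIT4 had the opposite sign, at -0.56.

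Among the 39 genes tested, 23 differences were positive and 1 was negative. Over all 15130 genes tested, 15.3% were positive and 16.7% negative. The arms of MEC1 differed in construct and antibiotic, while those of JVM2 shared vector and antibiotic and differed in the insert. In both lines the arms were also separately made populations. The difference between the controls cannot be told apart from the difference between the lines.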

How the results depend on the processing

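The alternatives were DESeq2, genes passing both edgeR's exact test and DESeq2, RLE scaling, library size only, no filter, a minimum of 10 counts per library, the replicate block and each library left out in turn. For the interaction, the minimum of 10 counts and the exact test were not among the alternatives. ER genes higher in MEC1 numbered 13 under every alternative but leave-one-out (12 to 13), and ER genes lower in JVM2 numbered 11 to 13. ATF4-branch genes in MEC1 numbered 4 to 5 higher and 8 to 10 lower, and 4 to 7 and 8 to 12 over leave-one-out. The JVM2 ER gene higher, HERPUD1, gave 0 to 1 over leave-one-out. Sensors lower in JVM2, 2 in the reported fit, numbered 0 by DESeq2 and by both tools, 1 with no filter and 0 to 2 over leave-one-out. Positive differences between the lines in the ATF4 branch, 9 as reported, numbered 9 to 11 over leave-one-out. Negative differences there, 1 as reported, numbered 2 with the replicate block (DDIT4 and SESN2) and 1 to 3 over leave-one-out, 3 without MEC1-CTRL replicate 3. The cause was not tested.

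Deviations of same-numbered replicates from the group means had correlations of -0.04, -0.0034 and 0.04 in MEC1. In JVM2 they were 0.07, 0.11 and -0.0030. Of the pairs, 1 of 3 in MEC1 and 2 of 3 in JVM2 correlated best with their own number. The replicate block called 6897 genes in MEC1 and 4236 in JVM2, against 6909 and 3821. It made SYVN1 lower in JVM2 (adjusted p 0.00866 by edgeR) and the difference of DNAJB9 positive (adjusted p 0.0219).

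Values near 0 that were not called as reported changed sign. Over leave-one-out, the log2 fold change in MEC1 ran from -0.0103 to 0.0567 for DNAJC3, -0.0245 to 0.0425 for ATF6, -0.0335 to 0.0285 for EIF2AK3, -0.149 to 0.0932 for DDIT3, -0.0884 to 0.0149 for CEBPG and -0.021 to 0.0407 for XBP1. In JVM2 it ran from -0.055 to 0.123 for DNAJB9 and -0.0003 to 0.053 for TRIB3, and the difference of CEBPG ran from -0.0304 to 0.118. ATF6 in MEC1 was 0.0023 by DESeq2 and 0.0014 with RLE scaling, and XBP1 in MEC1 was -0.0026 with library size only. Among the 40 genes, UGT2B17, XBP1 and the named genes of the further lists, no called value changed sign under these alternatives. The marker genes were not followed gene by gene under them.

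Other calls were gained when 1 library was left out (adjusted p by edgeR). MTHFD2 and WARS were higher in MEC1 without MEC1-CTRL replicate 1 (0.0290 and 0.00895), SLC3A2 was lower without MEC1-CTRL replicate 3 (0.0358), and EIF2AK3 was lower in JVM2 without JVM2-2B17 replicate 2 (0.0464). SESN2 had a negative difference without MEC1-CTRL replicate 3 (0.0295), MEC1-2B17 replicate 1 (0.0220), JVM2-CTRL replicate 2 (0.0362) or JVM2-2B17 replicate 2 (0.00653), and PPP1R15A without MEC1-CTRL replicate 3 (0.0453). Positive differences were gained for CEBPB without MEC1-2B17 replicate 2 (0.0365) or JVM2-2B17 replicate 2 (0.0441), and for CHAC1 without MEC1-2B17 replicate 2 (0.0439). That of DNAJB9 passed without MEC1-CTRL replicate 2 (0.0151), JVM2-CTRL replicate 1 (0.0190) or JVM2-2B17 replicate 2 (0.0120). With 28.2, 34.2 and 99.3 counts per JVM2 library on average, CHAC1, CEBPB and DDIT3 were the genes of the list most limited by depth.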
